A study of Mus musculus with 6 samples.

Results

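The genes described here are 10 host genes of small nucleolar RNAs (snoRNAs): *Snhg1*, *Snhg3*, *Snhg4*, *Snhg5*, *Snhg6*, *Snhg8*, *Snhg12*, *Snhg15*, *Gas5* and *Epb41l4aos*. They were chosen by name as hosts whose spliced RNA codes for no known protein, to be set beside the ribosomal protein transcripts, with earlier results of these data known. The 10 symbols stood on 11 of the 55364 gene records listed, because *Snhg4* named 2 records. One of these was the noncoding host. The other was a protein-coding readthrough record that runs from *Snhg4* into the neighbouring gene *Matr3*, and it is called the *Snhg4*-*Matr3* readthrough below. All 11 records passed the filter on low values and were among the 17353 genes tested.

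RNA-seq was performed on morulae in which the transcription factor YY1 had been depleted. Fertilized eggs from BDF1 females and BDF1 males were injected with a control siRNA (control KD) or an siRNA against *Yy1* (*Yy1* KD), grown in KSOM, and collected as morulae at 64 h after insemination. Each group had 3 libraries, each made from 10 pooled embryos of unknown sex with a SMART-Seq stranded kit. Nothing states that the pools came from separate inseminations, so p-values measure only the spread between these pools.

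Spliced snoRNA host transcripts are unusual messenger-like RNAs. Their introns carry the snoRNAs, which guide methylation or pseudouridylation of ribosomal RNA, while the spliced exons of many hosts are translated briefly and then destroyed by nonsense-mediated decay. Many hosts share with ribosomal protein mRNAs a 5′ terminal oligopyrimidine (TOP) tract, a run of C and T at the start of the transcript through which translation is tied to growth signals. Bulk RNA cannot tell a change in the amount of RNA per cell from a change in cell number or composition.

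The sequences around the annotated starts are shown because the TOP tract is the feature that links these hosts to ribosomal protein genes. Each line gives 20 bases before the start and 20 from it, 5′ to 3′ on the strand of the gene, from RefSeq (GRCm38.p6), and the capitals mark the longest run of C and T.
*Gas5*, upstream start, chr1:161034581-161034620, plus strand: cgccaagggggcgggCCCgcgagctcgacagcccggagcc
*Gas5*, downstream start, chr1:161035146-161035185, plus strand: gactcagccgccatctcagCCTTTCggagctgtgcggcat
*Snhg1*, chr19:8723467-8723506, plus strand: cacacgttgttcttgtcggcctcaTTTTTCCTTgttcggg
*Snhg12*, chr4:132308658-132308697, plus strand: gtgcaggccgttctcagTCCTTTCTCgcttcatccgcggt
*Snhg15*, chr11:6528741-6528780, minus strand: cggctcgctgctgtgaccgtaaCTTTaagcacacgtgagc
*Snhg3*, chr4:132353667-132353706, minus strand: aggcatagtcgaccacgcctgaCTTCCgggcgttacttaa
*Snhg5*, chr9:88522878-88522917, minus strand: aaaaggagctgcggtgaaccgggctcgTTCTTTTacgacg
*Snhg8*, chr3:123508317-123508356, minus strand: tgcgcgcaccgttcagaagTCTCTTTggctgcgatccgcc

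These 8 windows came from 7 of the hosts. *Snhg1* and *Snhg12* had the longest runs, of 9 bases, and *Snhg5* and *Snhg8* had runs of 7. These runs could lie anywhere in the 40 bases. A run that opened with C exactly at the annotated start, as a TOP tract does, was 6 bases long in *Snhg8*, 5 at the downstream start of *Gas5* and 3 in *Snhg1*, and 0 in the other 5 windows. These lengths depend on the exact base annotated as the start. In *Snhg12* the run of 9 began 3 bases before the start, which fell on a T within it. No share over all windows is given for runs that open at the start, and the shares below are for runs anywhere. Of all 32851 start windows, 10.7% held a run of at least 9 and 24.3% a run of at least 7. The median run was 6.5 bases in the host windows, 5 in all windows and 7 in 77 windows of ribosomal protein genes. A YY1 motif, written GCCATNTT and searched on both strands of the 300 bases from 250 before to 50 after the start, lay in 1 of the 8 host windows, that of *Snhg3*. The motif lay in 6.05% of all windows and in 18 of the 77 ribosomal protein windows (23.4%). Its shorter core, GCCAT on either strand, lay in 5 of the 8 host windows and in 40.5% of all windows. These matches describe letters only.

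*Yy1* itself was measured at 96.0, 100.2 and 89.8 TPM under control KD against 8.73, 8.90 and 8.32 TPM under *Yy1* KD. TPM counts read pairs per length of exon, on a scale that gives every library the same total. Read pairs recovered from TPM and exon length gave a depth of 12109124 to 25066149 pairs on genes, and control KD replicate 2 was the deepest library. All 13 morula markers were at 1 TPM or more in every library, with a summed level of 7743 to 8505 TPM. Of 14 markers of cumulus and granulosa cells, 5 were at 0 in all libraries, 1 was at 1 TPM or more in all of them, and their summed level was 9.64 to 12.7 TPM with overlapping groups. 

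None of the 11 host records passed the threshold in *Yy1* KD morulae. limma on log2(TPM + 1), with Benjamini-Hochberg adjustment over all genes tested, called 0 of 11, against 6.11% of all genes, of which 1.92% were called higher and 4.2% lower. At an unadjusted p under 0.05 there were 4 of 11 records (36.4%), against 23.8% of all genes. limma-voom on recovered read pairs also called 0, beside 844 genes called higher and 1321 lower over all 17312 it tested. It had 3 records at an unadjusted p under 0.05. No share over all genes is given for limma-voom, so this count cannot be set beside that of the main fit. The groups did not overlap for 4 of 11 records (36.4%), against 30.1% of all genes. These 4 were *Snhg3* and *Epb41l4aos*, higher in *Yy1* KD, and *Snhg5* and the *Snhg4*-*Matr3* readthrough, lower. The same 4 were the records at an unadjusted p under 0.05 from limma on log2(TPM + 1). The readthrough is protein-coding and shares most of its exons with *Matr3*, so neither share of 36.4% is of noncoding hosts alone. In all, 5 records were higher and 6 lower, and the median log2 fold change was -0.05, beside -0.02 over all genes tested.

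**Figure D1:**
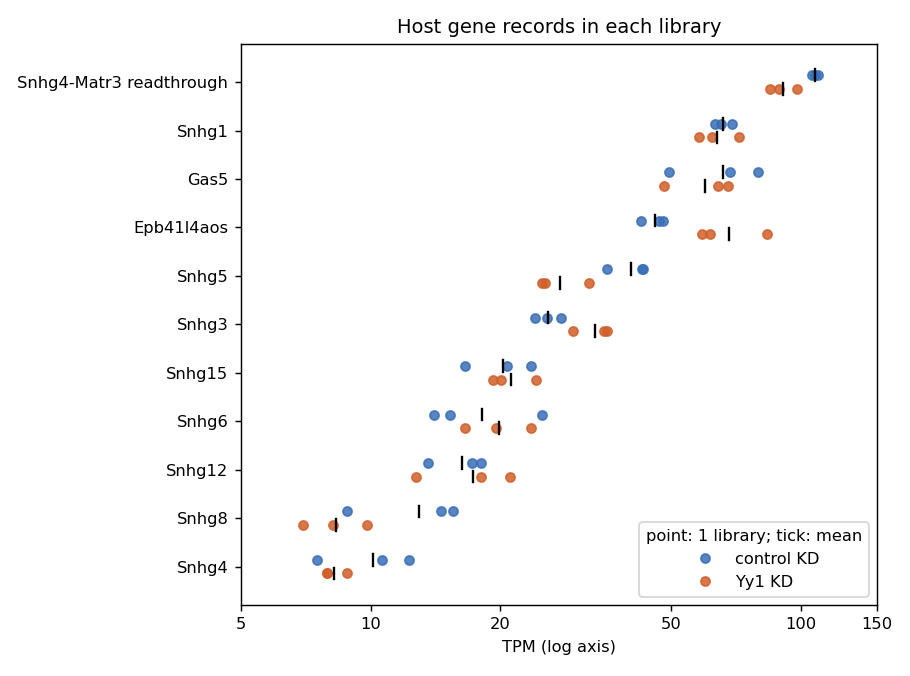
TPM of the 11 host records in each library on a log axis, with points for libraries (blue, control KD; orange, *Yy1* KD) and ticks for the mean of 3. The groups stand apart for *Epb41l4aos* and *Snhg3*, higher in *Yy1* KD, and for *Snhg5* and the readthrough, lower, and overlap for the other 7.

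*Snhg5* was the host with the smallest adjusted p. It lies at chr9:88521050-88522929 on the minus strand and carries the snoRNA pair *Snord50a* and *Snord50b*. The control KD libraries gave 42.7, 35.5 and 42.8 TPM, and the *Yy1* KD libraries gave 32.1, 25.4 and 24.99 TPM. Every *Yy1* KD library lay below every control KD library. The log2 fold change was -0.54 (SE 0.13, 95% interval -0.86 to -0.22), with an adjusted p of 0.065 from limma. It passed the threshold under 2 of 18 alternative settings, with an adjusted p of 0.0458 when genes averaging under 5 TPM were left out and of 0.0356 among genes of at least 200 nt.

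*Epb41l4aos*, at chr18:33794892-33795986 on the plus strand, had the highest log2 fold change among the hosts. The control KD libraries gave 47.9, 42.6 and 46.8 TPM, and the *Yy1* KD libraries gave 83.3, 61.3 and 58.9 TPM. The groups did not overlap, and *Yy1* KD replicate 1 was the highest library. The log2 fold change was 0.54 (SE 0.14, 95% interval 0.20 to 0.88), with an adjusted p of 0.0758 from limma. The merged exons of this gene span only 430 nt, and 106.5 to 277.5 read pairs lay behind each value.

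*Snhg3*, the host of the *Snora73* RNAs, had 24.1, 27.7 and 25.7 TPM in the controls and 34.8, 29.6 and 35.4 TPM after *Yy1* knockdown. All 3 *Yy1* KD libraries were above the controls. The log2 fold change was 0.35 (SE 0.11, 95% interval 0.09 to 0.61), with an adjusted p of 0.112 from limma. The gene lies at chr4:132348014-132353686 on the minus strand. *Gm17300*, on the opposite strand, covers 705 nt of its exons (71.5%), and since strand was ignored in counting, reads of the pair cannot be told apart. *Gm17300* had a log2 fold change of 0.16 with groups that did not overlap. *Rcc1*, a nuclear exchange factor gene that starts 81 nt away on the same strand and shares 135 nt of exon, had a log2 fold change of -0.02. *Snora73a* covers 159 nt of the *Snhg3* exons, so reads over it may also have entered the *Snhg3* values.

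The *Snhg4*-*Matr3* readthrough was the most abundant record, with 108.0, 106.0 and 109.2 TPM in the controls against 98.0, 84.8 and 88.9 TPM after *Yy1* knockdown. The groups did not overlap. Its log2 fold change was -0.25 (SE 0.08), with an adjusted p of 0.113 from limma. It shares 1754 of its 2166 exonic nt (81.0%) with *Matr3*, which encodes a nuclear matrix RNA-binding protein, and only 246 with the noncoding *Snhg4*. *Matr3* had a log2 fold change of -0.26, with an adjusted p of 0.157 from limma. Pairs were divided among overlapping genes, so reads of the readthrough and of *Matr3* cannot be told apart.

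The noncoding *Snhg4*, at chr18:35553371-35558316 on the plus strand, was the least abundant host. It was measured at 12.3, 7.53 and 10.6 TPM under control KD against 7.92, 8.82 and 7.92 TPM under *Yy1* KD, and the groups overlapped. Its log2 fold change was -0.25 (SE 0.19), with an adjusted p of 0.478 from limma. Short snoRNA genes shared 37.6% to 49.6% of the read pairs assigned to it, and without them its log2 fold change was -0.11.

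*Snhg8* had the lowest log2 fold change. It lies at chr3:123507552-123508404 on the minus strand and carries *Snora24*. It had 14.6, 8.80 and 15.6 TPM in the controls and 8.18, 9.81 and 6.98 TPM after *Yy1* knockdown. Control KD replicate 2 fell within the range of the *Yy1* KD libraries, so the groups overlapped. The log2 fold change was -0.56 (SE 0.24, 95% interval -1.12 to 0.00), with an adjusted p of 0.212 from limma. Only 29.5 to 99 read pairs lay behind a value, and between 31.8% and 69.5% of them were shared with *Snora24*. With those shared pairs taken away the log2 fold change was -0.84, still without passing the threshold.

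*Gas5*, a growth-arrest transcript with 10 snoRNA records inside it, and *Snhg1*, with 8, were the most abundant noncoding hosts. *Gas5* lies at chr1:161034422-161038539 on the plus strand and was measured at 79.5, 49.4 and 68.3 TPM under control KD against 48.0, 64.01 and 67.5 TPM under *Yy1* KD. The groups overlapped, with the lowest libraries of both close together. The log2 fold change was -0.12 (SE 0.20, 95% interval -0.60 to 0.36, adjusted p = 0.764, limma). *Zbtb37*, a zinc finger gene on the other strand that starts 427 nt away, had a log2 fold change of -0.15. *Snhg1* lies at chr19:8723475-8726443 on the plus strand and had 65.1, 63.0 and 69.3 TPM in the controls and 62.1, 57.8 and 71.7 TPM after *Yy1* knockdown. Its log2 fold change was -0.05 (SE 0.10, 95% interval -0.29 to 0.19, adjusted p = 0.821, limma), the narrowest interval among the noncoding hosts. *Slc3a2*, an amino acid transporter subunit gene that starts 106 nt from *Snhg1* on the other strand, had a log2 fold change of -0.34 (adjusted p = 0.366, limma).

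*Snhg6*, *Snhg12* and *Snhg15* also had overlapping groups, with adjusted p-values of 0.734, 0.885 and 0.831 from limma. They lie at chr1:9941959-9944118 (minus strand), chr4:132308623-132311024 (plus strand) and chr11:6525591-6528760 (minus strand). *Snhg6* was measured at 25.04, 14.03 and 15.3 TPM under control KD against 23.6, 16.6 and 19.6 TPM under *Yy1* KD, a log2 fold change of 0.16 (SE 0.24). *Snhg12* had 18.1, 13.6 and 17.2 TPM in the controls and 12.8, 21.1 and 18.1 TPM after *Yy1* knockdown, a log2 fold change of 0.06 (SE 0.20). *Snhg15* was measured at 23.5, 16.5 and 20.7 TPM under control KD against 24.2, 19.3 and 20.1 TPM under *Yy1* KD, a log2 fold change of 0.07 (SE 0.16). For *Snhg12*, *Yy1* KD replicate 1 was the lowest and replicate 2 the highest of all libraries. The 95% intervals of 7 of the 11 records contained 0, and the bounds over all 11 ran from -1.12 to 0.88.

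**Figure D2:**
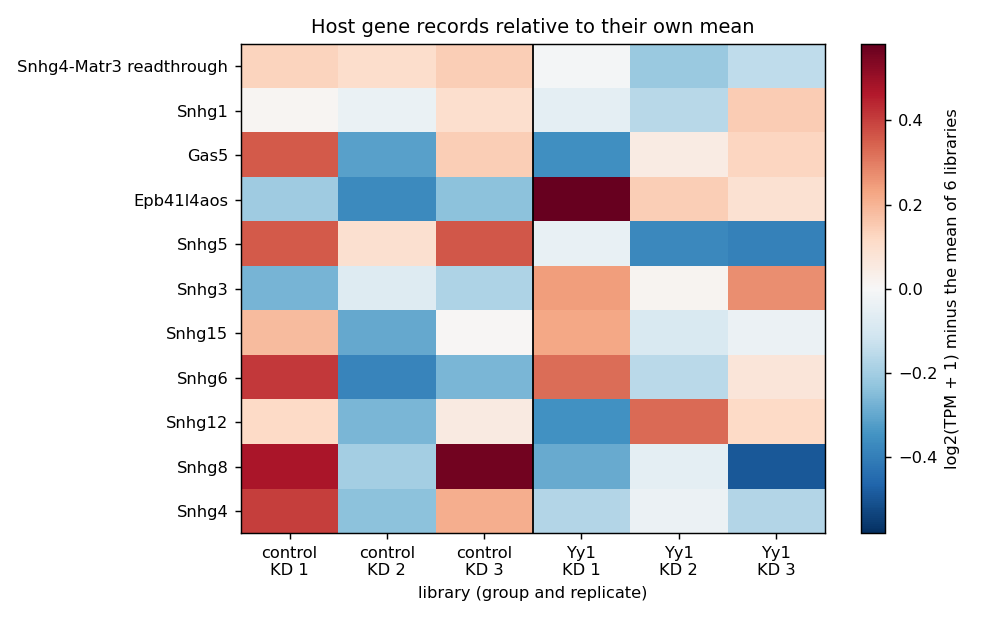
log2(TPM + 1) of each host record in each library, minus its mean over the 6 libraries (red, above; blue, below). Control KD replicate 2 is the lowest control for 10 of the 11 records.

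Part of the spread lay in a single control library. Control KD replicate 2 was the lowest of the controls for 10 of 11 records, all but *Snhg3*, while it was lowest for 37.3% of all genes tested. It was also the deepest library, and the part of either in the overlaps was not tested. Without it, limma still called 0 of 11, beside only 48 genes called higher and 151 lower over all 17353 tested. In that fit 6 records were at an unadjusted p under 0.05. No share over all genes is given for that fit, so this count cannot be set beside that of the main fit. Among the controls the records were ordered as readthrough (108 TPM), *Snhg1* (65.8), *Gas5* (65.7), *Epb41l4aos* (45.7), *Snhg5* (40.4), *Snhg3* (25.8), *Snhg15* (20.3), *Snhg6* (18.1), *Snhg12* (16.3), *Snhg8* (13.0) and *Snhg4* (10.2). Neighbours in this order were separated without overlap only between the readthrough and *Snhg1*, *Gas5* and *Epb41l4aos*, *Snhg5* and *Snhg3*, and *Snhg3* and *Snhg15*. The order also depends on the annotated exon lengths, such as 3760 nt for *Gas5* and 430 nt for *Epb41l4aos*.

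Ribosomal protein transcripts were higher in *Yy1* KD morulae more often than not. Of 85 tested, limma called 13, all of them higher (15.3%, beside 1.92% of all genes called higher), and 77 of 85 had a log2 fold change above 0, with a median of 0.26. The count of 13 was 45 with limma-voom, and it was 1, 1 and 0 without control KD replicates 1, 2 and 3 and 3, 1 and 3 without *Yy1* KD replicates 1, 2 and 3. The list was drawn by gene name and includes like-named forms, such as *Rpl7l1*, *Rpl10l*, *Rpl22l1*, *Rpl39l* and *Rps27l*, which were not separated out. *Rpl7l1* was called higher, with a mean of 181 TPM in the controls and 285 TPM after *Yy1* knockdown (log2 fold change 0.65). The others of these like-named forms had log2 fold changes below 0 and were not called. *Rpl34* was at 277 and 404 TPM (0.54), and *Rpl23a* at 1245 and 1763 TPM (0.50). Among the host records, 2 of 11 had a log2 fold change above 0.26. The intervals of 5 lay wholly below it, the readthrough among them, those of 6 contained it and none lay above it. The value of 0.26 comes from the same libraries and has its own error, and no test of hosts against ribosomal proteins was run. The median SE was 0.16 for the hosts and 0.08 for the ribosomal proteins, and the median of the mean TPM was 29.5 against 669.

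**Figure D3:**
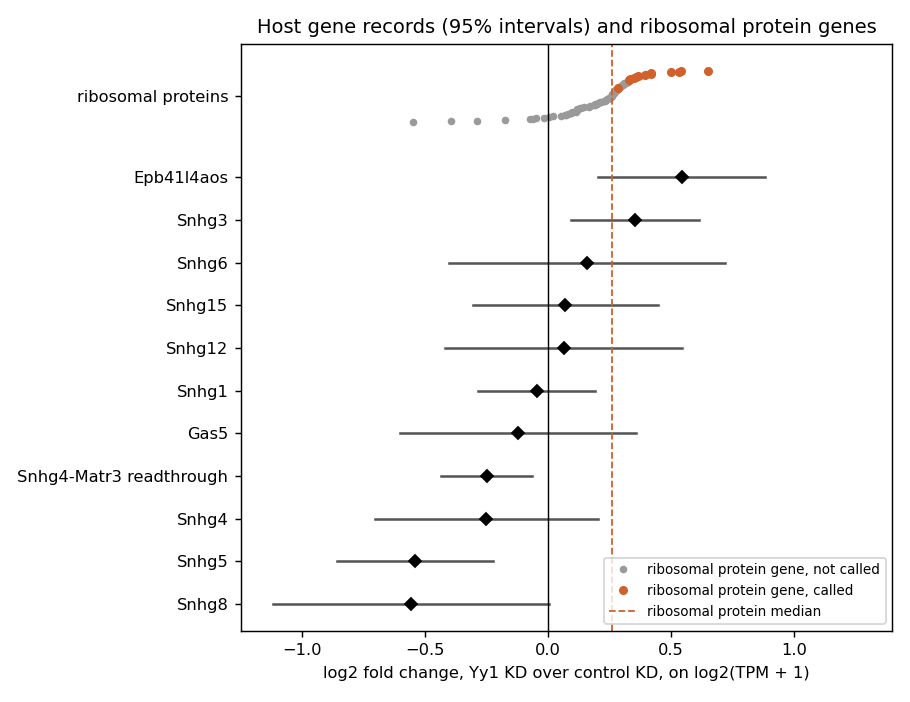
log2 fold change (*Yy1* KD over control KD) of the 11 host records with 95% intervals, and of 85 ribosomal protein genes as points (orange, called). The dashed line marks the ribosomal protein median of 0.26, and 5 intervals, that of the readthrough among them, lie wholly to its left.

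The mean log2(TPM + 1) of the ribosomal proteins minus that of the host records, the readthrough included, was taken in each library. It was 4.02, 4.37 and 3.9996 in the control KD libraries and 4.45, 4.40 and 4.33 in the *Yy1* KD libraries. The highest control value lay within the range of the *Yy1* KD values, so the groups overlapped. Other protein-coding TOP transcripts had 4 of 22 called, all higher (18.2%, beside the same 1.92%). These were the elongation factor genes *Eef2* (log2 fold change 0.44) and *Eef1d* (0.44), the chaperonin subunit gene *Cct4* (0.46) and *Naca* (0.41). Among protein-coding hosts of snoRNAs, 9 of 50 were called higher and 1 lower, *Rabggtb* (-0.61), together 20% beside 6.11% of all genes, in a list that shares genes with the ribosomal proteins. Of 10 other noncoding hosts tested, limma called 1 (10%), *Snhg11*, which GENCODE vM21 types as protein-coding and which fell from 6.07 to 1.09 TPM (log2 fold change -1.74, adjusted p = 0.025), and the list median was -0.19.

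Proteins that act on host RNAs or their snoRNAs were examined from lists. Of 19 genes for snoRNP proteins and their assembly, 3 were called (15.8%, beside 6.11% of all genes). *Ruvbl1* (0.43) and *Znhit6* (0.40) were called higher, and *Nop10*, a core subunit of box H/ACA particles, was called lower (-0.57). Of 20 genes of nonsense-mediated decay, only *Pnrc2*, which links the decay factor UPF1 to decapping, was called, a share of 5% beside 6.11% of all genes, and it fell from 6.95 to 1.499 TPM (-1.69). Of 16 genes tested among TOP and mTORC1 regulators, 3 were called (18.8%). *Akt1s1* (0.86) and *Rps6* (0.42) were called higher and *Rps6kb2* (-0.84) lower. *Rps6* is itself a ribosomal protein gene and was also among the 13 called in that list. By direction, 4 of the 16 were higher and 12 lower, with a median log2 fold change of -0.05.

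**Figure D4:**
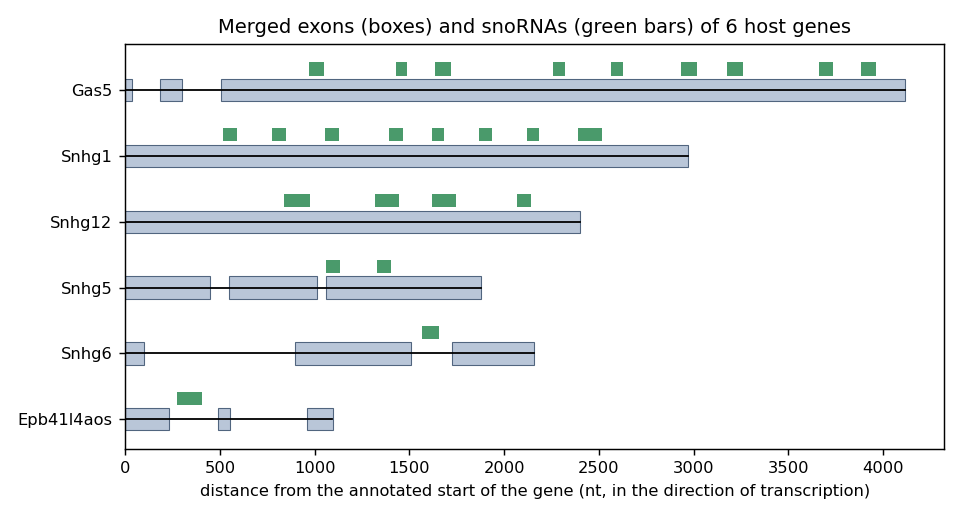
Merged annotated exons (boxes) and annotated snoRNAs (green bars) of 6 host genes, by distance in nt from the annotated start in the direction of transcription. The exons of *Snhg1* and *Snhg12* merge into 1 block that covers the snoRNAs, while the snoRNAs of *Snhg6* and *Epb41l4aos* lie in introns.

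The snoRNAs were the second readout of these loci. GENCODE vM21 places 33 snoRNA records of 60 to 205 nt inside the hosts, 30 of them over exons of some annotated isoform and 3 in introns only. For *Snhg1*, *Snhg8* and *Snhg12* the merged exons cover the whole gene, so spliced and unspliced RNA cannot be told apart. The same limit largely holds for *Gas5*, *Snhg5* and *Snhg4*, where they cover 91.3%, 92.0% and 94.3% of the gene. A read pair over a snoRNA may come from the host precursor. Of 21 snoRNA sequences under 100 nt that were read, 18 held both a box C (TGATGA) in the first 25 bases and a box D (CTGA) in the last 20. None of the 9 longer sequences held both. The sequences below are those whose groups did not overlap, the near copy of one of them, and 2 of high TPM for comparison. They are from GENCODE vM21 (GRCm38), 5′ to 3′, and the capitals mark box C and box D.
*Snord50a* in *Snhg5*, chr9:88521529-88521600, minus strand: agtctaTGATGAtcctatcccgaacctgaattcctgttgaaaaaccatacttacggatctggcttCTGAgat
*Snord50b* in *Snhg5*, chr9:88521797-88521868, minus strand: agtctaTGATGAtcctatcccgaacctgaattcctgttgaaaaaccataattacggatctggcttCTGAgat
*Gm50452* in *Gas5*, chr1:161037356-161037439, plus strand: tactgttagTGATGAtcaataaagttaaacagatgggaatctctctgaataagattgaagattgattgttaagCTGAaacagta
*Gm22357* in *Gas5*, chr1:161036057-161036139, plus strand: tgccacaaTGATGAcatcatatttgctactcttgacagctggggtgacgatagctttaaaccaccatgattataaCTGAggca
*Snord87* in *Snhg6*, chr1:9942463-9942549, minus strand: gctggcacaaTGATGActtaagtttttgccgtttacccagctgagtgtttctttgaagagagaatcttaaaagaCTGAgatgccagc

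No snoRNA record inside the hosts passed the threshold. limma called 0 of 33, with 2 at an unadjusted p under 0.05, and limma-voom also called 0, with 1. For limma the shares over all genes were 6.11% and 23.8%, and 6 of all 389 snoRNA records tested were called. By direction, 7 were higher and 26 lower in *Yy1* KD morulae, with a median log2 fold change of -0.22 and a median SE of 0.30. The other 356 snoRNA records tested had a median of -0.06, with 150 higher and 206 lower. Several records inside 1 host overlap or share its reads, so they are not independent.

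The groups did not overlap for 2 of 33 records, both lower, beside 30.1% of all genes. *Gm50452* had 45.2, 37.3 and 75.1 TPM in the controls and 16.9, 18.4 and 30.8 TPM after *Yy1* knockdown (log2 fold change -1.20, adjusted p = 0.0731, limma), while its host *Gas5* had -0.12. Behind the *Gm50452* values lay only 19.67 to 47.08 read pairs under control KD and 8.5 to 12.83 under *Yy1* KD. *Snord50a* was measured at 18.3, 18.1 and 17.7 TPM under control KD against 8.07, 0 and 9.81 TPM under *Yy1* KD (adjusted p = 0.208, limma). At most 13.4 read pairs lay behind any of these *Snord50a* values. *Snord50b*, which differs from it by 1 base (C50A, counted from the 5′ end of *Snord50a*), had 25.04, 31.8 and 22.3 TPM in the controls and 23.3, 8.84 and 18.2 TPM after *Yy1* knockdown, with overlapping groups.

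The 2 snoRNAs of high TPM shown for comparison had overlapping groups. TPM divides by length, so a short gene reaches a high TPM with few pairs. *Gm22357*, of 83 nt, had 129.67 to 267.17 read pairs, beside 1257.5 to 1919 for its host *Gas5*. *Gm22357* was measured at 352, 312 and 335 TPM under control KD against 202, 355 and 399 TPM under *Yy1* KD (log2 fold change -0.12). *Snord87*, in an intron of *Snhg6*, had 205, 240 and 135 TPM in the controls and 141, 237 and 246 TPM after *Yy1* knockdown (0.10). *Gm23639*, in an intron of *Epb41l4aos*, had a log2 fold change of -0.57 (SE 0.31) beside 0.54 for its host, and its groups overlapped.

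**Figure D5:**
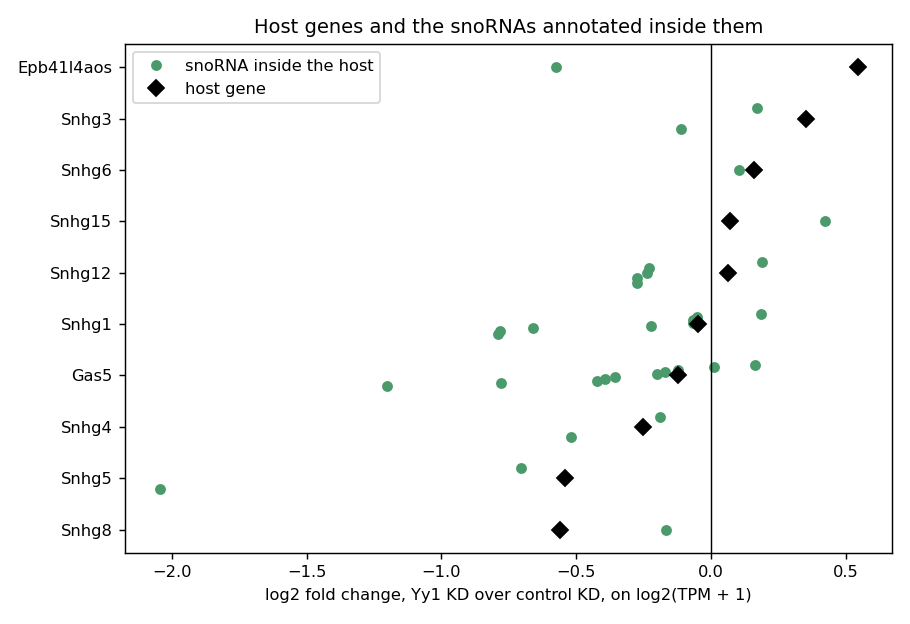
log2 fold change (*Yy1* KD over control KD) of each noncoding host gene (diamonds) and of the snoRNA records inside it (green points). Of the 33 snoRNA records, 26 lie left of 0, and in 7 of 10 hosts more of them are lower than higher.

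Reads over snoRNAs also entered the host values. Short snoRNA genes shared 46.6% to 63.0% of the read pairs of *Snhg1*, 24.1% to 31.1% of those of *Gas5*, 25.4% to 41.9% of those of *Snhg12*, 12.1% to 21.8% of those of *Snhg15* and 1.45% to 5.85% of those of *Snhg5*. With shared pairs taken away, the log2 fold change of *Snhg1* was 0.04 in place of -0.05. That of *Gas5* was -0.09, that of *Snhg12* 0.09, that of *Snhg15* 0.00 and that of *Snhg5* -0.52. limma still called 0 of the 11 host records, beside 333 genes called higher and 728 lower. It had 5 records at an unadjusted p under 0.05. No share over all genes is given after the subtraction, so this count cannot be set beside that of the main fit. Only genes under 200 nt were subtracted, so *Snhg3* kept any reads shared with *Snora73a*, which is 205 nt long. *Snora73a* had 58.9 to 145.1 read pairs, beside 123 to 281.9 for *Snhg3*.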

How the data were processed

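RNA-seq was performed on 3 control KD and 3 *Yy1* KD libraries, grouped by their labels. The authors trimmed reads with Trim Galore (0.6.7), aligned them to mm10 with HISAT2 (2.2.1), removed ribosomal RNA reads with bedtools, assigned pairs to GENCODE vM25 with featureCounts (2.0.1), ignoring strand and dividing pairs among overlapping genes, and deposited TPM. The authors tested counts with edgeR. Since TPM are not counts, limma (3.58.1, R 4.3.3) was fitted here to log2(TPM + 1), with a variance trend and no replicate block, for genes at 1 TPM or more in at least 3 libraries. The tests were two-sided, with Benjamini-Hochberg adjustment over all genes tested, and genes were called at an adjusted p under 0.05. Fold changes on this scale understate those of low genes.

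Exon lengths, positions and snoRNAs came from GENCODE vM21 (55104 of 55364 identifiers matched), and start windows from RefSeq. Of recovered pair values under 20, 80.6% to 81.6% were whole and 99.3% to 99.4% multiples of a sixth of a pair. *Snhg5* and *Snhg15* have other versions in vM21, so their pairs are approximate. The alternatives were a pseudocount of 0.1, other filters and scalings, other variance models, library weights, a replicate block, leave-one-out, limma-voom, genes of at least 200 nt and subtraction of pairs shared with short genes. The test was checked on simulated data. The host genes and lists were chosen with earlier results of these data known. Named genes were the hosts, *Yy1*, overlapping or adjacent genes, snoRNAs inside hosts, called list genes with the largest changes, and the 5 most similar genes. The result of 1 gene that this rule names is not reported here. *Snord50b*, *Gm22357* and *Snord87* were chosen for printing after their values were seen. Same-numbered libraries had correlations of deviations of -0.004, 0.03 and 0.07. Tables used Python 3.11.15, pandas 2.3.3 and matplotlib 3.10.9.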

Additional observations from a re-analysis of the deposited data

How the results depend on the processing

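Of the host records, *Snhg5* alone passed the threshold under any of the 18 alternatives, as 1 host called lower at a mean TPM of at least 5 and among genes of at least 200 nt. Its log2 fold change ran from -0.65 to -0.47. *Snhg6*, *Snhg8*, *Snhg3*, *Epb41l4aos*, *Snhg4* and the readthrough kept their direction under all 18, *Gas5*, *Snhg12* and *Snhg15* under 16, and *Snhg1* under 15. The count of 13 ribosomal proteins called higher was less stable. It was 2 without a filter on low values, 21 at a mean TPM of at least 5, 4 with quantile normalization, 1 without a variance trend, 2 with a replicate block, 45 with limma-voom, and 0 to 3 with 1 library left out (0 without control KD replicate 3). Over all genes, 333 were called higher and 728 lower. These counts were 77 and 270 without a filter, 132 and 382 without a variance trend, 69 and 218 with the replicate block, 844 and 1321 with limma-voom, and 22 to 92 and 53 to 326 with 1 library left out. With quantile normalization 388 were higher and 548 lower. The cause of these shifts was not tested. Whether same-numbered libraries were paired is not stated. The correlations of their deviations, from 3 libraries a group, cannot settle it. Low read pair numbers limit *Snhg8* and the snoRNA records *Gm50452*, *Snord50a* and *Snord50b*. With 3 libraries a group, no exact permutation p can fall below 0.1.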

Other observations

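The genes whose log2(TPM + 1) over the 6 libraries was most like the mean of the standardized host records, among 6550 candidates, were *Smc5* (Pearson r = 0.96), *Taf1* (0.96), *Ofd1* (0.96), *Tnfrsf10b* (0.95) and *Farp2* (0.95). This is a description over 6 libraries, which differ in depth, and every gene compared comes from the same libraries. *Smc5*, a subunit of a chromosome maintenance complex, was at 198, 150 and 176 TPM in control KD and at 169, 153 and 173 TPM in *Yy1* KD morulae. *Snhg9*, a further noncoding host that GENCODE vM21 types as antisense, was at 54.4, 45.9 and 40.5 TPM in control KD and at 32.8, 36.8 and 34.7 TPM in *Yy1* KD morulae. Its groups did not overlap, and its log2 fold change of -0.41 did not pass the threshold (adjusted p = 0.102, limma). *Snhg9* was chosen after its values were seen.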
